A study of Mus musculus with 24 samples.

Results

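Most protein-coding genes make several transcripts, and the share of a gene's counts that each transcript holds can change even where the gene's total does not. Transcript shares were compared between the mouse retina at E14 and E16, when the earliest retinal neurons are present in number, and at E11 and E12, when the tissue is made mainly of dividing progenitors. The table of the whole series holds 45594 genes, of which 22175 are protein-coding, and 14091 of these have 2 or more transcripts (77625 of 113468 transcripts). Of the 14091 genes, 4305 had under 20 counts in at least 1 of the 8 libraries, and in 2197 more fewer than 2 transcripts passed the limits on low counts and low shares. The other 7589 genes, with 23769 transcripts, were tested.

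All mice were of the strain C57/Bl6N, and each age gave 2 libraries of polyadenylated RNA from whole retina. E14 and E16 gave 4 libraries made from 1 µg of RNA each, and E11 and E12 gave 4 libraries made from 100 ng each. The amount of RNA and the age therefore differ together between the 2 sides, and their parts in any difference cannot be told apart. No label tells whether the 2 libraries of an age came from different animals. The spread behind each p-value is that between libraries, and it may be technical. In the main test it is the spread between the 2 libraries of an age. An SD given over the 4 libraries of a side also holds the difference between its 2 ages. The 8 libraries held 27773670 (E12 replicate 1) to 32902611 (E11 replicate 2) estimated counts, and 50.8% to 53.8% of the counts lay in tested transcripts.

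Alternative splicing joins the exons of one gene in different combinations, while alternative promoters and alternative last exons change where a transcript begins or ends. In neurons, a class of very short coding exons, called microexons, is spliced into transcripts of the cytoskeleton, of membrane traffic and of cell adhesion. The repressor Ptbp1 holds back many neural exons in dividing cells, and the factor Srrm4 helps neurons to include microexons.

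The tissue label was checked against markers. The summed level of 10 retinal progenitor markers was 3029 to 4645 CPM (counts scaled to a common library size) at E14 and E16 and 2918 to 4027 CPM at E11 and E12, and all 10 were detected on both sides. Single members of this list moved in opposite directions. Sfrp2 was at 1285 and 1340 CPM at E14, 150 and 163 CPM at E16 and 1108 to 1578 CPM at E11 and E12. Fgf15 was at 954 to 1292 CPM at E14 and E16 and 207 to 538 CPM at E11 and E12. The summed level of 14 ganglion cell and new neuron markers was 3187 to 3804 CPM at E14 and E16 and 54.9 to 611 CPM at E11 and E12. A bulk share averages over the cells of the tissue, so a different mix of cell types and a different choice of transcript within a cell cannot be told apart, and neither can fewer cells of a type and less RNA per cell. Lens RNA was present in uneven amounts. The sum of 18 lens markers was 72.2, 2581, 4.63 and 5.18 CPM in the libraries of E14 and E16, and 3180, 30.7, 232 and 3139 CPM in those of E11 and E12, in the order replicate 1 and 2 of the earlier age and then of the later. Red cell markers summed to 179 to 696 CPM at E14 and E16 and to 752 to 8367 CPM at E11 and E12, mesenchyme markers to 28.9 to 46.0 CPM at E14 and E16 and 111 to 250 CPM at E11 and E12, and pigment epithelium markers to 178 to 335 CPM at E14 and E16 and 267 to 599 CPM at E11 and E12. Endothelium markers summed to 174 to 315 CPM at E14 and E16 and to 135 to 184 CPM at E11 and E12, and microglia markers to 23.1 to 33.1 CPM at E14 and E16 and 38.6 to 61.2 CPM at E11 and E12. Most of the endothelium sum was Kdr, at 156 to 286 CPM at E14 and E16 and 89.6 to 124 CPM at E11 and E12. Cdh5 was at 0.64 to 10.4 CPM at E14 and E16 and 6.18 to 23.9 CPM at E11 and E12. Cldn5 leaned the other way, with 1.59 to 5.33 CPM and 0.206 to 4.15 CPM on these sides. Otx2, counted with the pigment epithelium, was at 99.5 to 276 CPM at E14 and E16 and 60.4 to 160 CPM at E11 and E12. Trpm1 of the same list was at 13.6 to 43.5 CPM and 99.1 to 272 CPM. Of the red cell markers, Hbb-y was at 0.511 to 101 CPM at E14 and E16 and 370 to 2948 CPM at E11 and E12. Hbb-bs was at 28.8 to 310 CPM at E14 and E16 and 23.0 to 69.4 CPM at E11 and E12. The part of these cell types in the results was not tested. A fit without the 3 libraries over 1000 CPM of lens RNA, given below, cannot decide it.

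Usage changed in 321 of 7589 genes, which is 4.23% of those tested. A change here means a gene-level adjusted p under 0.05 and at least 1 transcript with its own adjusted p under 0.05 and a mean share that differs by 10 percentage points or more (edgeR quasi-likelihood test of differential transcript usage, Benjamini-Hochberg over all genes or transcripts). The adjusted p alone was passed by 841 genes, or 11.08%. In 33 genes (0.435%) the leading transcript itself differed between the sides and both leading transcripts passed the test, which is called a switch here. In 17 of the 33, the transcript that led at E14 and E16 held more counts than the other in each of those 4 libraries, and fewer than it in each library of E11 and E12. The largest single change of the called genes had a median of 18.8 points, against 4.68 points over all tested genes, and reached 20 points in 142 genes. In 226 of the 321 genes the 4 libraries of one side lay wholly above the 4 of the other for that transcript, which is 70.4% of the called genes against 12.27% of all tested genes. This contrast and that of the medians follow in part from the rule for a call, which uses the same libraries. The summed count of the gene also changed at least 2-fold in 86 of the 321 genes (83 higher and 3 lower at E14 and E16), or 26.8% against 11.32% of all tested genes. Details of the test were settled after results had been seen, and without the bias adjustment of the dispersion it called 197 genes and 13 switches. Leaving out the 3 libraries rich in lens RNA kept 5 libraries, with 1 each of E11, E12 and E14 and both of E16. The spread in that fit comes from E16 alone, so it cannot show whether the calls hold without lens RNA. The genes it called were not the same throughout. Of the genes described below, Ablim1, Bin1, Gabbr1 and Fgfr3 lost their call in that fit with a gene-level adjusted p under 0.05, and Poli (adjusted p = 0.0778), Arfgap1 (0.0607), Runx1t1 (0.0749) and Gnao1 (0.0849) lost it above 0.05 (edgeR quasi-likelihood test). Without E16 replicate 1 the calls fell to 210 genes and 511 past the adjusted p, and without E14 replicate 1 or E14 replicate 2 to 539 and 522 past the adjusted p. Switches fell to 21 without E14 replicate 1, 18 without E14 replicate 2, 18 without E16 replicate 1 and 19 without E16 replicate 2.

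Exon structures were then compared between the transcripts that gained and lost share. For each gene the transcript whose share grew most was set beside the one whose share shrank most, and exon structures were known for both in 279 called genes and 6762 tested genes. The growing transcript held an internal exon that the other lacked in 99 called genes (35.5%), against 17.4% of tested genes. It lacked an internal exon that the other held in 49 (17.6%), against 14.4%. A different first exon was found in 122 called genes (43.7%), against 52.2%, and a different last exon in 22.9%, against 29.7%. The coding sequence differed in 162 of the 321 called genes (50.5%), against 34.7% of the tested genes. The growing transcript was annotated as retained intron in 5.61% of called genes, against 12.4%. The shrinking transcript was so annotated in 7.48% of called genes, against 13.5%, so the share was lower in both directions. The exons gained were short. The 136 exons held by the growing transcript of called genes had a median of 54 nt, and 42 of them (30.9%) were 27 nt or shorter, against a median of 102 nt and 8.46% over all tested genes. Their length was a multiple of 3, which keeps the reading frame, in 76.5% of called genes' exons against 49.9%. These shares describe the called genes beside the tested ones and were not tested.

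Because short exons stood out among the called genes, the inclusion of each coding exon that some transcripts of a tested gene skip was then computed for all tested genes, called or not, a measure added after the usage results were seen. Inclusion is the percentage of counts in transcripts that hold the exon among those that hold or skip it. It rests on counts that kallisto divides among transcripts, not on reads across the junctions themselves. Exons of a gene with the same inclusion in every library were counted once, as the shortest of them. Such a group therefore entered the class of its shortest exon, and it was left out where that exon was not coding. The effect of this rule on the length classes was not tested. Of 4414 such exons, 261 (5.91%) were higher in all 4 libraries of E14 and E16 than in all 4 of E11 and E12, and 149 (3.38%) were lower. Among 306 exons of 27 nt or shorter, in 248 genes, 72 (23.5%) were higher and 7 (2.29%) were lower. Among 530 exons of 28 to 54 nt, 52 (9.81%) were higher and 16 (3.02%) lower, and among 3578 exons of 55 to 300 nt, 137 (3.83%) were higher and 126 (3.52%) lower. The median change was 3.70 points for the shortest class, with a median inclusion of 41.2% at E14 and E16 and 32.3% at E11 and E12. It was 1.09 points for the middle class and 0.508 points for the longest. The excess of higher exons in the shortest class was also present in genes whose usage was not called, where 30 of 238 exons (12.6%) were higher and 4 (1.68%) lower. With at least 500 counts per library behind each exon, 53 exons of the shortest class (28.8%) were higher and 5 were lower.

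**Figure D1:**
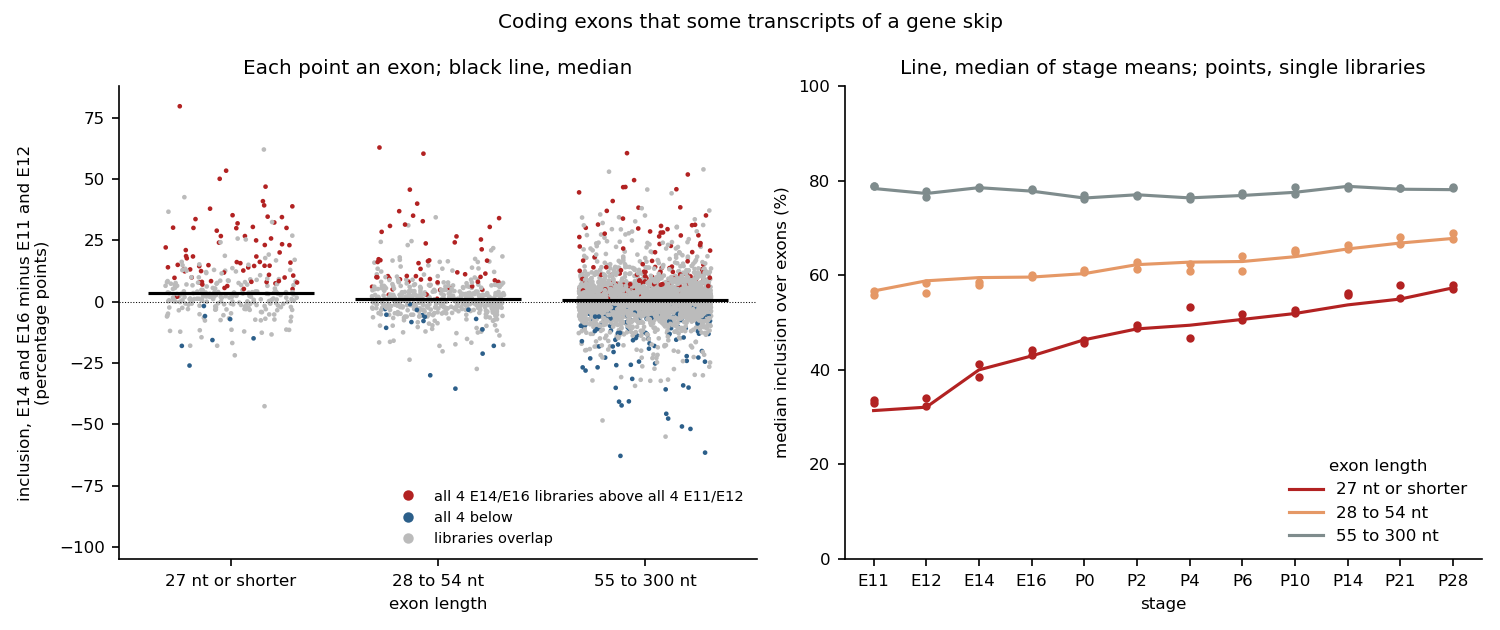
Left, change in inclusion (percentage points, E14 and E16 minus E11 and E12) of coding exons by exon length, 1 point per exon, with red for exons higher in all 4 libraries of E14 and E16 (72, 52 and 137 from shortest to longest class) and blue for exons lower in all 4 (7, 16 and 126). Right, median inclusion (%) of each length class at 12 stages, with points for single libraries; the shortest class goes from 31.4% at E11 to 57.3% at P28 while the longest stays between 76.3% and 78.8%.

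Over the whole series the median inclusion of the exons of 27 nt or shorter was 31.4% at E11, 32.1% at E12, 40% at E14, 42.9% at E16 and 46.4% at P0. It then reached 48.7% at P2, 51.9% at P10, 53.7% at P14 and 57.3% at P28. The largest of these steps was the one between E12 and E14, across which 85 of the 306 exons were at least 10 points higher and 21 at least 10 points lower. Between E11 and E12, at one RNA input, 40 were higher and 39 lower by that much. Between E14 and E16, at the other input, 45 were higher and 16 lower. The exons of 55 to 300 nt split otherwise at the same 3 steps, with 364 higher and 515 lower between E11 and E12, 517 and 348 between E12 and E14, and 252 and 309 between E14 and E16. These are counts of stage means of 2 libraries and carry no test.

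The exons below were picked after their values were seen, as the coding exons of 27 nt or shorter with a difference of at least 30 points, at least 200 counts behind each library and no overlap between the sides, in genes called for usage. They are shown because they are the sequences that transcripts gained or kept at E14 and E16, and the text after them gives their inclusion. Each is written 5′ to 3′ on the gene's strand with the exon in capitals and the last 15 bases of the upstream exon and first 15 bases of the downstream exon in lower case, read from the GRCm38 genome with exon positions of GENCODE M21.
Apbb1, 6 nt, chr7:105565946-105565951, minus strand: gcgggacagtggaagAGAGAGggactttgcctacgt
Agrn, 12 nt, chr4:156169546-156169557, minus strand: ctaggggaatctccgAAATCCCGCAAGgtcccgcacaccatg
Dnm1, 12 nt, chr2:32323179-32323190, minus strand: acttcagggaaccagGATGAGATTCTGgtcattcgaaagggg
Abi1, 15 nt, chr2:22963214-22963228, minus strand: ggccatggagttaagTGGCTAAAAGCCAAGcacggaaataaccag
Sh3glb2, 15 nt, chr2:30346059-30346073, minus strand: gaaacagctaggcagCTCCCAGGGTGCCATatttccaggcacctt
Atp6v0a1, 18 nt, chr11:101049459-101049476, plus strand: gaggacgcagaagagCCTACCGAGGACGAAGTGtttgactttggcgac
Dctn1, 18 nt, chr6:83186428-83186445, plus strand: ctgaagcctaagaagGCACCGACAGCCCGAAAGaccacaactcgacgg
Dctn1, 21 nt, chr6:83187764-83187784, plus strand: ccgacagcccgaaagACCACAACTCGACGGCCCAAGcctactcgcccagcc
Mapk8ip3, 24 nt, chr17:24920472-24920495, minus strand: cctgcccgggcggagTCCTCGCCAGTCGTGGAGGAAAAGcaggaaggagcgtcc
Snx14, 27 nt, chr9:88400723-88400749, minus strand: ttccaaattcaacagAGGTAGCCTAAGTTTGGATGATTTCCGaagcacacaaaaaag
Git1, 27 nt, chr11:77502829-77502855, plus strand: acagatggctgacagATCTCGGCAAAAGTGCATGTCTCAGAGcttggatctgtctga
Slit2, 27 nt, chr5:48263641-48263667, plus strand: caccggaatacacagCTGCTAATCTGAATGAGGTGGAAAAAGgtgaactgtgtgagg

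Apbb1 encodes Fe65, an adaptor that binds the amyloid precursor protein, and its 6 nt exon had the most even values. Inclusion of that exon was 46.9%, 48.5%, 49.7% and 49.6% in the libraries of E14 and E16, and 7.96%, 8.36%, 4.42% and 16.8% in those of E11 and E12. The means were 48.7% ± 1.28 at E14 and E16 and 9.38% ± 5.24 at E11 and E12 (SD, n = 4 each). The gene's adjusted p for usage was 2.18e-05 (edgeR quasi-likelihood test).

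Agrn encodes agrin, a heparan sulfate proteoglycan whose neural form carries short inserts. The 12 nt exon was included at 56.3%, 52.4%, 63.9% and 61.9% in the libraries of E14 and E16, and at 19.6%, 20.6%, 33.9% and 32.6% in those of E11 and E12. Both other short exons of Agrn in that region differed without overlap as well. The 24 nt exon averaged 52.2% ± 9.36 at E14 and E16 and 28.05% ± 3.005 at E11 and E12, and the 33 nt exon averaged 27.2% ± 4.36 at E14 and E16 and 0.532% ± 1.06 at E11 and E12 (SD, n = 4 each). The gene's adjusted p for usage was 9.52e-09 (edgeR quasi-likelihood test).

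Several of these exons lie in genes of membrane traffic and the cytoskeleton. Abi1, a subunit of the complex that turns on branched actin, had its 15 nt exon at 71.3% ± 10.8 at E14 and E16 and 36.0% ± 15.98 at E11 and E12. Dnm1 encodes dynamin 1, which pinches off endocytic vesicles, and its 12 nt exon averaged 89.2% ± 6.002 at E14 and E16 and 59.0% ± 3.20 at E11 and E12. Snx14, a sorting nexin, had its 27 nt exon at 50.6% ± 7.80 at E14 and E16 and 16.07% ± 3.02 at E11 and E12. Atp6v0a1 encodes a membrane subunit of the proton pump of vesicles, and its 18 nt exon was included at 31.9%, 31.6%, 40.8% and 43.5% at E14 and E16, and at 3.63%, 0%, 5.17% and 0% at E11 and E12. Means are given with the SD over 4 libraries a side. That the sides did not overlap in these exons, and that their genes passed the adjusted p, follows from the selection. Their gene-level adjusted p ran from 8.22e-06 for Atp6v0a1 to 0.0180 for Dnm1 (edgeR quasi-likelihood test). Sptan1, which encodes the alpha chain of spectrin under the membrane, stood just outside the selection. Its 15 nt exon averaged 76.7% ± 8.91 at E14 and E16 and 37.8% ± 4.07 at E11 and E12, and its gene-level adjusted p was 0.0257 (edgeR quasi-likelihood test), but no single transcript of at least 10 points passed its own test.

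Dctn1 encodes the large subunit of dynactin, which links dynein to its cargo and to microtubules. Its 21 nt exon averaged 47.7% ± 7.10 at E14 and E16 and 15.4% ± 7.40 at E11 and E12, and its 18 nt exon 37.0% ± 9.35 at E14 and E16 and 6.89% ± 7.49 at E11 and E12. Git1, a scaffold at focal adhesions and synapses, had its 27 nt exon at 34.2%, 13.9%, 46.5% and 49.1% in the libraries of E14 and E16, and at 4.89%, 1.74%, 8.78% and 6.17% in those of E11 and E12. Slit2 encodes a secreted guidance cue that repels retinal axons. Its 27 nt exon was included at 33.3%, 23.2%, 43.0% and 42.0% at E14 and E16, and at 0%, 0%, 17.1% and 4.03% at E11 and E12. Mapk8ip3, a cargo adaptor of axonal transport, had its 24 nt exon at 75.8% ± 6.16 at E14 and E16 and 42.1% ± 19.2 at E11 and E12, and Sh3glb2 had its 15 nt exon at 61.0% ± 12.8 at E14 and E16 and 20.03% ± 10.5 at E11 and E12 (SD, n = 4 each). Of the 2 libraries of E14, replicate 2, which was rich in lens RNA, gave the lower value in 8 of the 12 exons and the higher in 4, and the part of lens RNA in this was not tested.

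**Figure D2:**
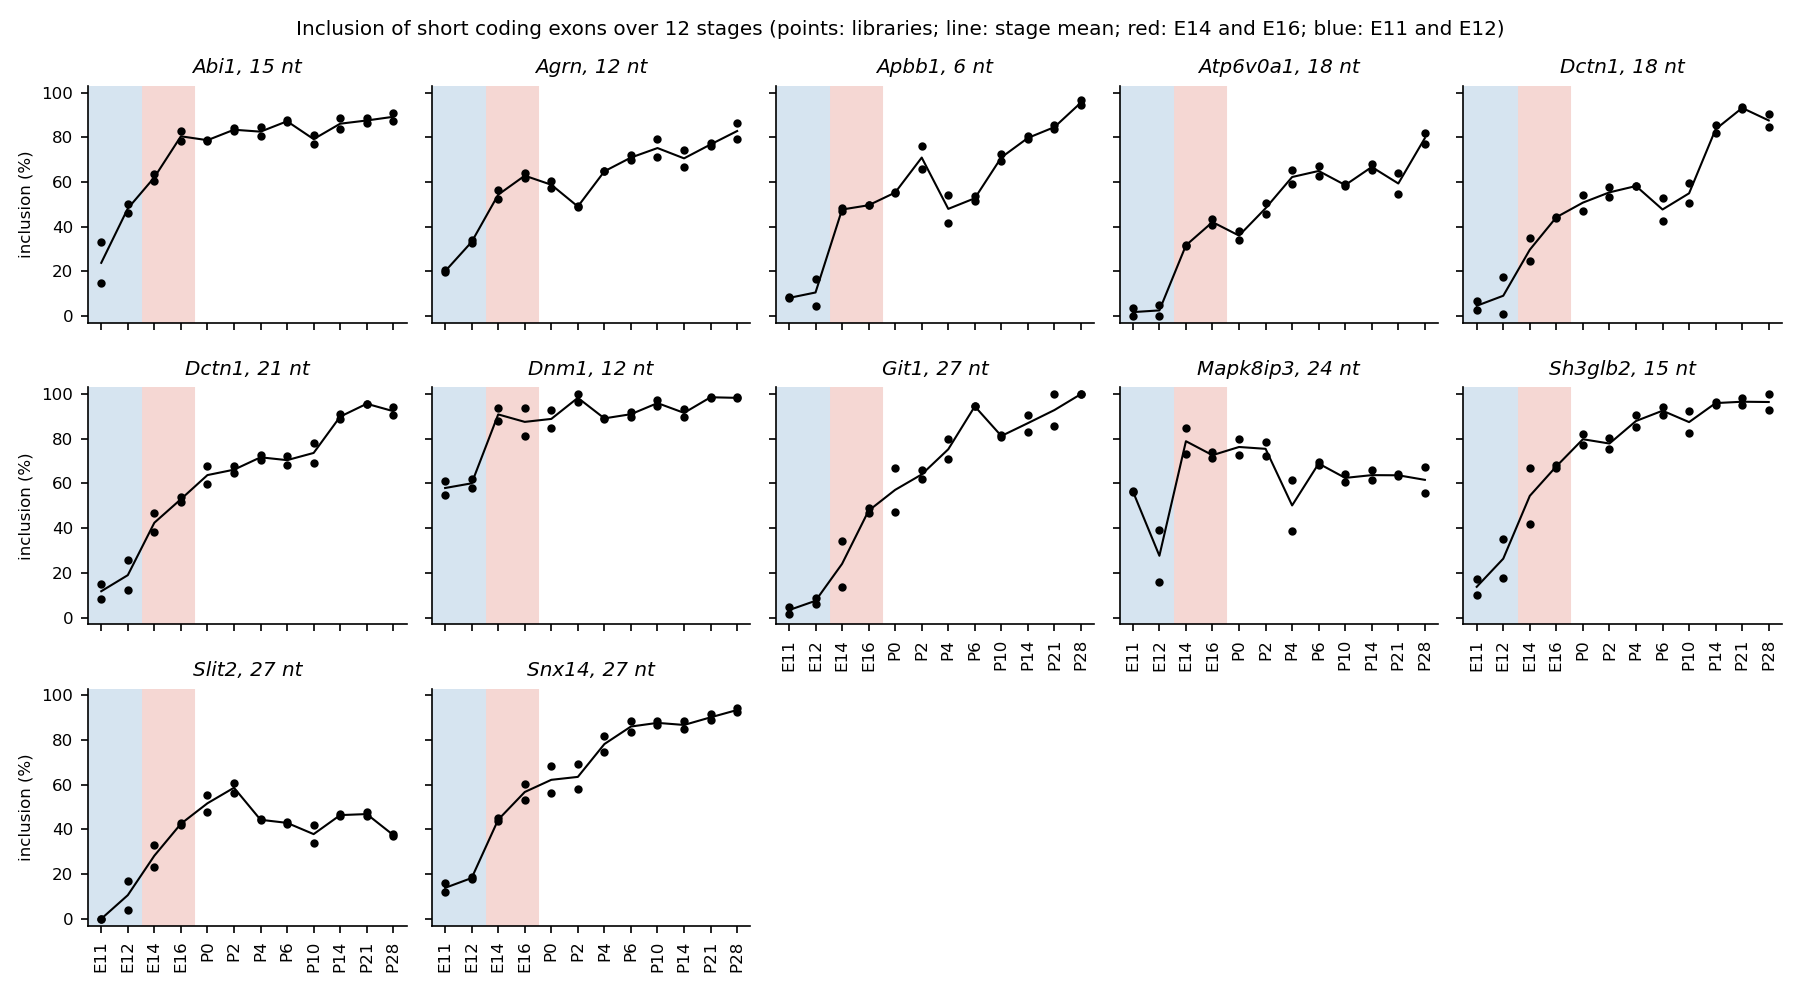
Inclusion (%) of the 12 short coding exons at 12 stages from E11 to P28, with points for single libraries, lines for stage means, red shading for E14 and E16 and blue shading for E11 and E12. In each panel the 4 points in red lie above the 4 in blue, as the selection required. Git1 ends at 100% at P28 while Mapk8ip3 and Slit2 end at 61.6% and 37.5%.

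Some exons outside this selection, being longer or resting on fewer counts, carried transcript changes in genes named by size of change. Clta encodes the light chain a of clathrin, and its brain form carries exons that the ubiquitous form lacks. The 54 nt exon of Clta is printed with its flanks beside an exon of Epb41l3, since each is held by the transcript that gained share.
Clta, 54 nt, chr4:44030215-44030268, plus strand: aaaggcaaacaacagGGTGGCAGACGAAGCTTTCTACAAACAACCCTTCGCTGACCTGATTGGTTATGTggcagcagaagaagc
Epb41l3, 36 nt, chr17:69273882-69273917, plus strand: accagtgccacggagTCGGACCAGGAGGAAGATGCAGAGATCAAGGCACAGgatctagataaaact

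Inclusion of the 54 nt exon of Clta was 35.4%, 25.1%, 46.7% and 48.05% in the libraries of E14 and E16, and 1.70%, 1.42%, 9.63% and 6.05% in those of E11 and E12. The transcript Clta-002, which holds the exon, had a mean share of 37.4% ± 10.7 at E14 and E16 and 4.56% ± 3.67 at E11 and E12 (SD, n = 4 each), a log2 change of 3.39 (SE 0.23) relative to the gene. The gene's adjusted p was 2.36e-06 (edgeR quasi-likelihood test), while its summed count did not pass the gene-level test (adjusted p = 0.293). The exon continued to 57.1% at P0, 85.3% at P10 and 79.2% at P28. Cltb, the other light chain, had a 54 nt exon at 12.4% ± 2.02 at E14 and E16 and 0.411% ± 0.823 at E11 and E12 (SD, n = 4 each).

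Turning to the genes whose leading transcript changed, 14 with at least 10 CPM on each side were named by size of change. Thrb encodes the thyroid hormone receptor beta, whose second form, TRβ2, sets the opsin choice of cone photoreceptors. Thrb-001, whose annotated protein has 475 residues and corresponds to TRβ2, held 65.04%, 73.3%, 73.5% and 72.0% of the gene's counts in the libraries of E14 and E16, and 4.55%, 0%, 11.4% and 5% in those of E11 and E12. The sides lay far apart, with means of 71.0% ± 4.003 at E14 and E16 and 5.23% ± 4.67 at E11 and E12 (SD, n = 4 each). Thrb-201, whose protein has 461 residues and corresponds to TRβ1, had a mean share of 26.7% ± 4.68 at E14 and E16 and 90.5% ± 4.16 at E11 and E12. The 2 transcripts start at different promoters of chromosome 14, at 17981644 and 17660960 on the plus strand of GRCm38. The change of Thrb-001 was 3.80 (SE 0.41) on the log2 scale, with an adjusted p of 2.30e-05 for the gene (edgeR quasi-likelihood test), and the gene rose to 105 CPM at E14 and E16, against 23.2 CPM at E11 and E12. With limma on log2 ratios the change of Thrb was not called. Its share did not keep this level later, with 41.1% at P0, 24.1% at P6, 5.93% at P10 and 6.42% at P28.

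Ntrk2 encodes TrkB, the receptor of the neurotrophin BDNF. Ntrk2-201, annotated with 821 residues and corresponding to the full-length receptor with its kinase, held 37.8%, 35.3%, 70.3% and 64.8% at E14 and E16, and 0.999%, 0.826%, 9.27% and 3.99% at E11 and E12. Ntrk2-202, with 476 residues and corresponding to a truncated receptor, averaged 47.9% ± 18.1 at E14 and E16 and 96.2% ± 3.94 at E11 and E12. The share of the full-length form was higher at E16 than at E14, and both ages lay above all early libraries. In both libraries of E14 the truncated form still led, and the full-length form led only in those of E16. Its log2 change was 4.29 (SE 0.31), and the gene's adjusted p was 1.45e-06 (edgeR quasi-likelihood test). The share was 73.1% at P0 and 55.4% at P28.

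**Figure D3:**
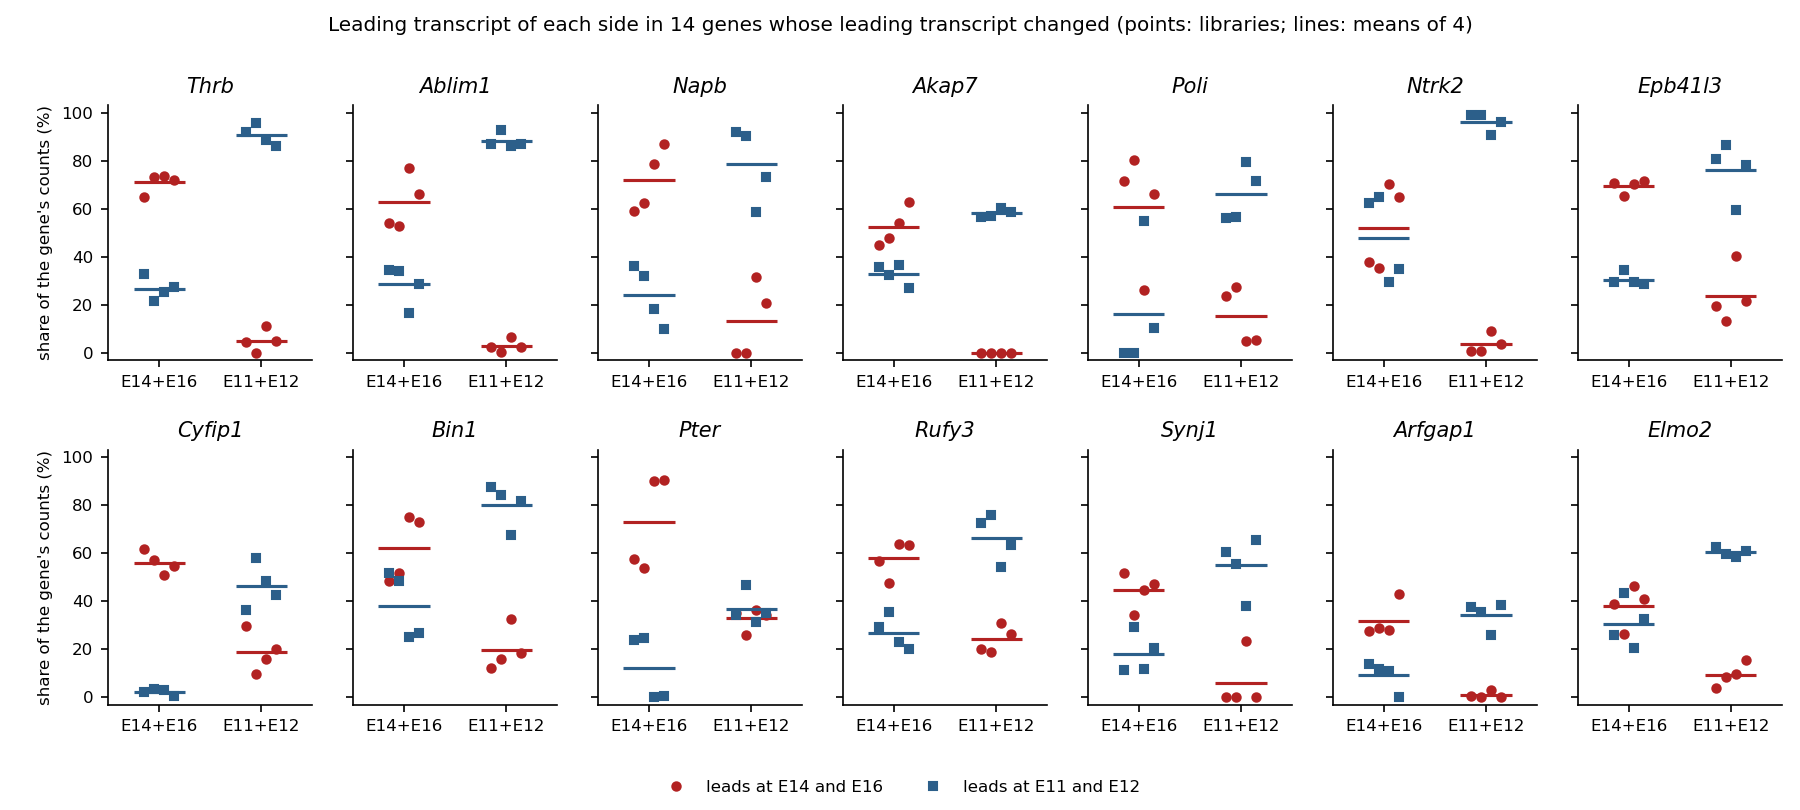
Share of the gene's counts (%) of the transcript that led at E14 and E16 (red circles) and of the one that led at E11 and E12 (blue squares) in 14 genes, with 4 libraries a side and lines for their means. In Thrb the red means are 71.0% at E14 and E16 and 5.23% at E11 and E12, and in Poli the libraries of E14 and E16 spread widely.

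Cytoskeletal genes made up several switches. Ablim1 encodes an actin-binding LIM protein. Ablim1-001 held 54.2%, 52.9%, 77.1% and 66.3% at E14 and E16, and 2.62%, 0.289%, 6.91% and 2.54% at E11 and E12, with an adjusted p of 2.26e-06 for the gene (edgeR quasi-likelihood test). Ablim1-013 averaged 28.5% ± 8.38 at E14 and E16 and 88.1% ± 3.16 at E11 and E12 (SD, n = 4 each). The fall of Ablim1-013 no longer passed its own test without E14 replicate 1, E14 replicate 2 or E16 replicate 1, although the gene-level adjusted p stayed at 0.000142, 9.83e-05 and 5.90e-05 in these fits (edgeR quasi-likelihood test). Without the 3 lens-rich libraries Ablim1 was not called either. The 2 transcripts differ in their first exon and code for 654 and 426 residues. Within the gene a 105 nt exon was included at 69.6% ± 8.78 at E14 and E16 and 8.99% ± 2.50 at E11 and E12, while a 141 nt exon was at 35.2% ± 11.25 at E14 and E16 and 96.8% ± 2.93 at E11 and E12.

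Epb41l3 encodes a protein of the band 4.1 family, which ties spectrin and actin to membrane proteins. Epb41l3-001, which holds the 36 nt exon shown above and lacks one of 66 nt, held 70.5%, 65.4%, 70.5% and 71.5% at E14 and E16, and 19.4%, 13.4%, 40.5% and 21.8% at E11 and E12. The log2 change was 1.603 (SE 0.21) and the gene's adjusted p 4.95e-05 (edgeR quasi-likelihood test). The 36 nt exon went on to 80.3% at P0 and 97.0% at P28.

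Bin1 encodes amphiphysin 2, which bends membranes. Bin1-201, with 588 residues, averaged 62.0% ± 13.98 at E14 and E16 and 19.8% ± 8.88 at E11 and E12 (SD, n = 4 each), and Bin1-202, with 477 residues, held the rest. Bin1-201 did not lead in every library of E14 and E16. Cyfip1, which joins the actin-regulating WAVE complex to translational control, had Cyfip1-002 at 56.0% ± 4.47 at E14 and E16 and 19.0% ± 8.27 at E11 and E12. Cyfip1-006 fell to 2.31% ± 1.29 at E14 and E16, against 46.3% ± 9.13 at E11 and E12. Rufy3, an adaptor of axon growth and polarity, had Rufy3-001 at 57.8% ± 7.52 at E14 and E16 and 24.2% ± 5.68 at E11 and E12, and this transcript codes for 469 residues where Rufy3-002 codes for 669. The adjusted p was 4.95e-05 for Bin1, 9.10e-08 for Cyfip1 and 0.000108 for Rufy3 (edgeR quasi-likelihood test). In none of the 3 did the libraries of the sides overlap. The change of Rufy3 was not called without E14 replicate 1 (adjusted p = 0.00361), E14 replicate 2 (0.00200), E16 replicate 1 (0.00200) or E16 replicate 2 (0.00320, edgeR quasi-likelihood test), since Rufy3-002 then missed its own test. It was not called with 2 sides in place of 4 stages or without bias adjustment either, and Bin1 was not called without the lens-rich libraries.

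Napb and Akap7 gained coding transcripts where the early transcript was annotated as not making the protein. Napb encodes beta-SNAP, a neuronal helper of membrane fusion. Napb-001 held 59.1%, 62.5%, 78.6% and 86.9% at E14 and E16, and 0%, 0%, 31.7% and 20.99% at E11 and E12. Napb-002, annotated as a target of nonsense-mediated decay, averaged 24.1% ± 12.13 at E14 and E16 and 78.6% ± 15.7 at E11 and E12 (SD, n = 4 each). The 2 differ by a 47 nt exon, which was included at 74.7% at E14 and E16 and 14.3% at E11 and E12 and whose absence shifts the reading frame. The gene's adjusted p was 2.56e-06 (edgeR quasi-likelihood test), while the change was not called with DESeq2 or with 2 sides in place of 4 stages. Napb rose to 57.0 CPM at E14 and E16, against 13.9 CPM at E11 and E12.

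Akap7 encodes an anchor of protein kinase A. Akap7-004, a short form of 81 residues with its own first exon, held 44.8%, 47.8%, 54.1% and 62.9% at E14 and E16. It was at 0 in all 4 libraries of E11 and E12, which allows a share of up to 0.601% in the library with the fewest counts of the gene (3 of 499 counts, counting error only). Akap7-003, a transcript without a coding sequence, averaged 32.9% ± 4.28 at E14 and E16 and 58.1% ± 1.67 at E11 and E12 (SD, n = 4 each). The gene's adjusted p was 1.41e-09 (edgeR quasi-likelihood test). The form was transient, with 32.6% at P0, 9.57% at P4 and 4.21% at P28.

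**Figure D4:**
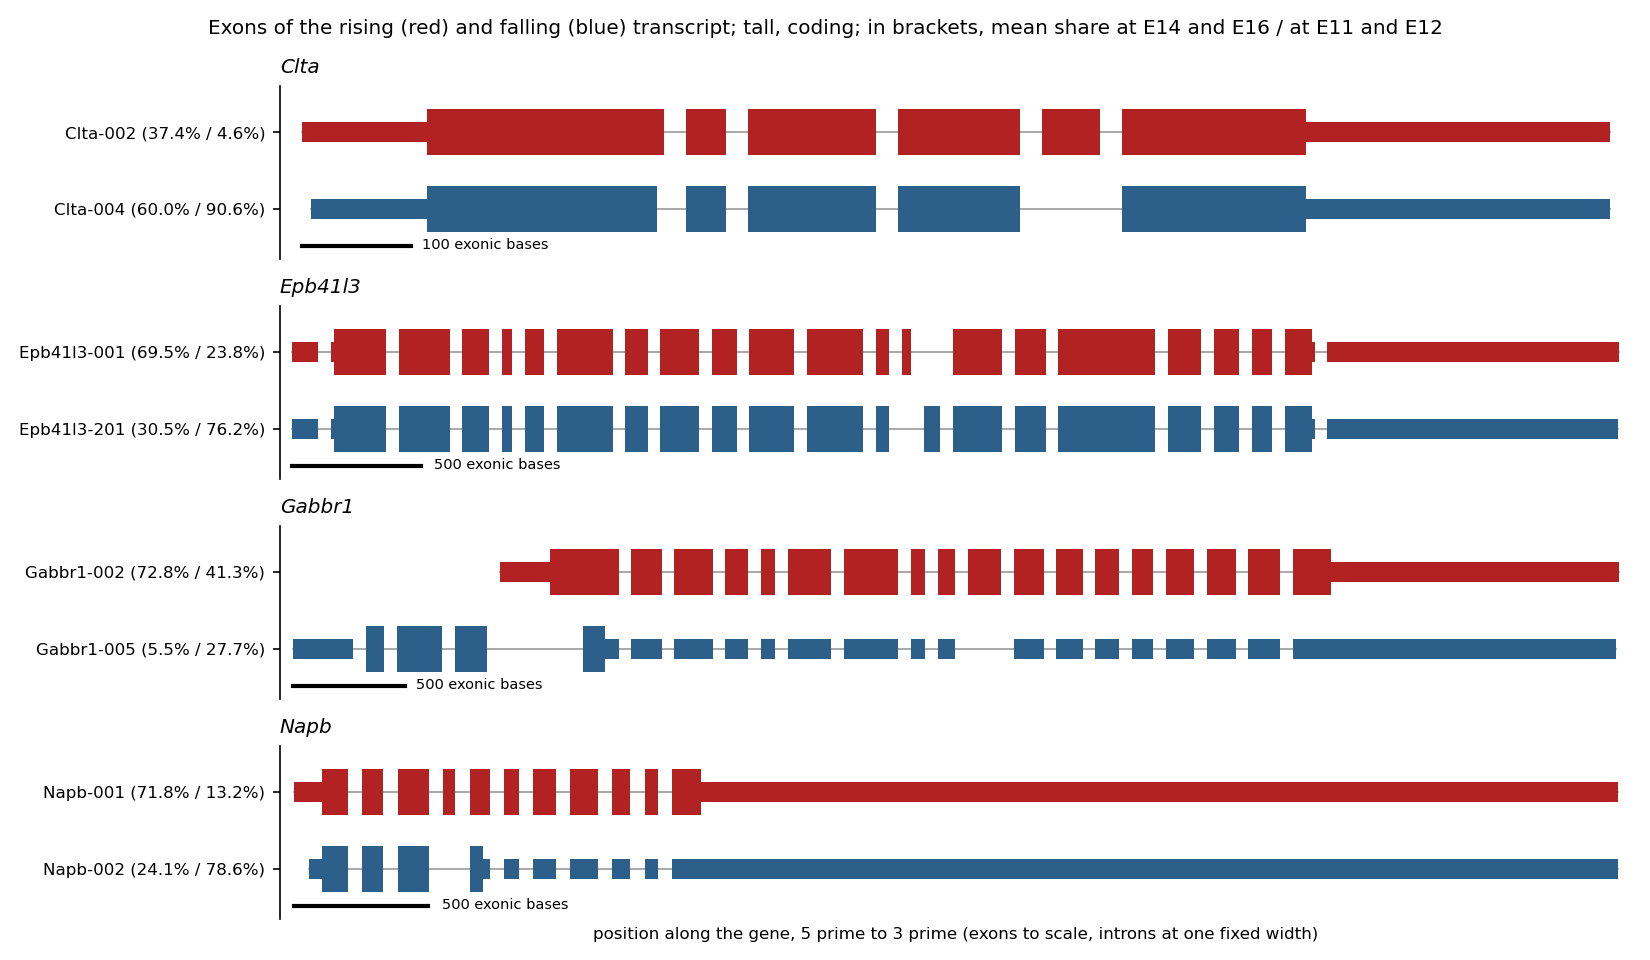
Exons of the transcript whose share grew (red, upper) and of the one whose share shrank (blue, lower) in Clta, Epb41l3, Gabbr1 and Napb, drawn 5′ to 3′ with exons to scale (bars of 100 or 500 bases) and introns at 1 fixed width, tall boxes for coding sequence. The brackets give the mean share at E14 and E16 before that at E11 and E12, and in Napb and Gabbr1 the coding boxes of the blue transcript end early.

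The other named switches were in Synj1, Arfgap1, Elmo2, Pter and Poli. Synj1 encodes synaptojanin 1, a lipid phosphatase that takes part in uncoating synaptic vesicles. Synj1-201, with 1309 residues, held 51.9%, 34.2%, 44.5% and 47.2% at E14 and E16, and 0.147%, 0%, 23.4% and 0% at E11 and E12. Synj1-002, with 1607 residues, averaged 18.2% ± 8.38 at E14 and E16 and 54.97% ± 11.9 at E11 and E12 (SD, n = 4 each). The libraries of the sides did not overlap for either, and 1 early library, E12 replicate 1, stood apart from the other 3.

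Arfgap1 and Elmo2 take part in membrane traffic and in cell shape. Arfgap1 switches off the small GTPase ARF1 at the Golgi, and Arfgap1-005, with 392 residues, averaged 31.9% ± 7.51 at E14 and E16 and 0.846% ± 1.40 at E11 and E12. Arfgap1-004, which has no coding sequence, averaged 9.20% ± 6.26 at E14 and E16 and 34.5% ± 5.74 at E11 and E12 (SD, n = 4 each). The summed count of Arfgap1 hardly differed, with 48.4 CPM at E14 and E16 and 48.6 CPM at E11 and E12. Elmo2 forms part of an activator of the small GTPase Rac. Its 36 nt exon, held by Elmo2-007 and lacking in Elmo2-008, was included at 47.6%, 31.0%, 57.0% and 47.0% at E14 and E16, and at 4.62%, 10.3%, 10.6% and 16.7% at E11 and E12. Elmo2-007 led Elmo2-008 in every library of E14 and E16 except E14 replicate 2. The adjusted p was 0.000564 for Synj1, 1.18e-05 for Arfgap1 and 6.97e-06 for Elmo2 (edgeR quasi-likelihood test). The fall of Elmo2-008 missed its own test without E14 replicate 1 or E16 replicate 1, with a gene-level adjusted p of 0.000234 and 0.000418 in these fits. Elmo2 was also not called with limma, with 2 sides in place of 4 stages or without the E12 libraries. Synj1 was not called with limma (adjusted p = 0.175) or without the E11 libraries, and Arfgap1 was not called with limma (0.163) or without the lens-rich libraries.

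Pter-001 held 57.4%, 53.9%, 89.96% and 90.5% at E14 and E16, and 34.9%, 25.8%, 36.2% and 34.4% at E11 and E12, so its share was higher at E16 than at E14. Pter-002, which led by its mean share at E11 and E12, was not above Pter-001 in every library of those ages. Poli encodes a DNA polymerase that copies past lesions. Poli-002 held 71.5%, 80.2%, 26.1% and 66.0% at E14 and E16, and 23.9%, 27.6%, 5.23% and 5.398% at E11 and E12, so that E16 replicate 1 lay among the early libraries. Poli-201, which codes for the same number of residues (674) from another first exon, held 0%, 0.196%, 55.01% and 10.4% at E14 and E16, and 56.3%, 56.7%, 79.4% and 71.4% at E11 and E12. The adjusted p was 2.25e-06 for Pter and 0.000111 for Poli (edgeR quasi-likelihood test). Poli was not called with DESeq2 (adjusted p = 0.0258), with 2 sides in place of 4 stages or without the lens-rich libraries. Pter was not called with DESeq2 (adjusted p = 0.0583), with 2 sides or without bias adjustment.

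In other genes the shares moved without a change of the leading transcript that passed the test for both. Dclk1 encodes doublecortin-like kinase, which binds microtubules in migrating and growing neurons. Dclk1-003 fell to 3.72%, 2.25%, 3.42% and 4.88% at E14 and E16, against 39.8%, 34.4%, 39.0% and 31.7% at E11 and E12, and the adjusted p of the gene was 1.41e-09 (edgeR quasi-likelihood test). Dclk1-202 averaged 23.2% ± 4.40 at E14 and E16 and 5.48% ± 4.56 at E11 and E12 (SD, n = 4 each). The summed count of Dclk1 rose as well, to 212 CPM at E14 and E16 against 61.0 CPM at E11 and E12.

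Gabbr1 encodes a subunit of the receptor for GABA that couples to G proteins, and its 2 main proteins come from different promoters. Gabbr1-002, with 844 residues and the downstream start, averaged 72.8% ± 5.57 at E14 and E16 and 41.3% ± 6.64 at E11 and E12, with an adjusted p of 6.35e-08 for the gene (edgeR quasi-likelihood test). Gabbr1-005, annotated as a target of nonsense-mediated decay, averaged 5.48% ± 3.51 at E14 and E16 and 27.7% ± 6.05 at E11 and E12 (SD, n = 4 each). Sgip1, an endocytic protein of neurons, had the noncoding Sgip1-003 at 38.0% ± 3.68 at E14 and E16 and 79.8% ± 10.4 at E11 and E12, with an adjusted p of 3.43e-06 for the gene (edgeR quasi-likelihood test). Map1lc3a, a protein of autophagosomes, had Map1lc3a-002 at 0%, 7.74%, 11.25% and 10.6% at E14 and E16, and at 13.8%, 25.1%, 80.9% and 54.5% at E11 and E12. Its early libraries spread widely, and its adjusted p of 0.00340 (edgeR quasi-likelihood test) was 0.386 with DESeq2. Map1lc3a was also not called with limma, with 2 sides, without bias adjustment or without the E12 libraries, where the change was -12.1 points against -36.2 points with all libraries. With coding transcripts alone the change of Gabbr1 was 18.4 points against 31.6 points with all, and it was not called, nor was it with 2 sides or without the lens-rich libraries. Sgip1 was not called with 2 sides or without bias adjustment. Leaving out single libraries ended some of these calls because the named transcript missed its own test. This held for Gabbr1 without E14 replicate 1 (gene-level adjusted p = 2.86e-05) and for Sgip1 without E12 replicate 2 (0.000317), E14 replicate 1 (0.000142), E14 replicate 2 (0.000220), E16 replicate 1 (0.000325) or E16 replicate 2 (0.000211, edgeR quasi-likelihood test). It also held for Map1lc3a without E11 replicate 2 (0.0328), E16 replicate 1 (0.0246) or E16 replicate 2 (0.0235, edgeR quasi-likelihood test).

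Of the 8 gene lists read, the one of cytoskeleton and trafficking genes with neural exons had the highest share of called members. The lists were drawn up with earlier results of these data known, so their counts describe the genes and are not independent evidence. Of 58 tested genes in that list, 22 were called (37.9%, against 4.23% of all genes), with 5 switches and a median largest change of 10.202 points against 4.68 points over all genes. The called members were Epb41l3, Bin1, Epb41l1, Clta, Snap23, Apbb2, Dnm1, Apbb1, Evl, Tpm1, Klc1, Map2, Add1, Ank2, Exoc1, Itsn1, Ank3, Kif1b, Tpm3, Exoc7, Dnm2 and Cltb. Kif1b, a kinesin of axonal transport, had its 18 nt exon at 85.5% ± 4.17 at E14 and E16 and 67.0% ± 4.55 at E11 and E12 (SD, n = 4 each). Of 38 adhesion, guidance and surface receptor genes, 8 were called (21.05%), among them Ntrk2, Ntrk3, Agrn, Ptprf, Magi1, Sema6a and Mllt4, with a median change of 5.99 points. Ptprf, a receptor phosphatase of axons, had a 27 nt exon at 18.5% at E14 and E16 and 2.30% at E11 and E12. The markers of new neurons were higher in these libraries as given above, and their part in the 2 lists was not tested.

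**Figure D5:**
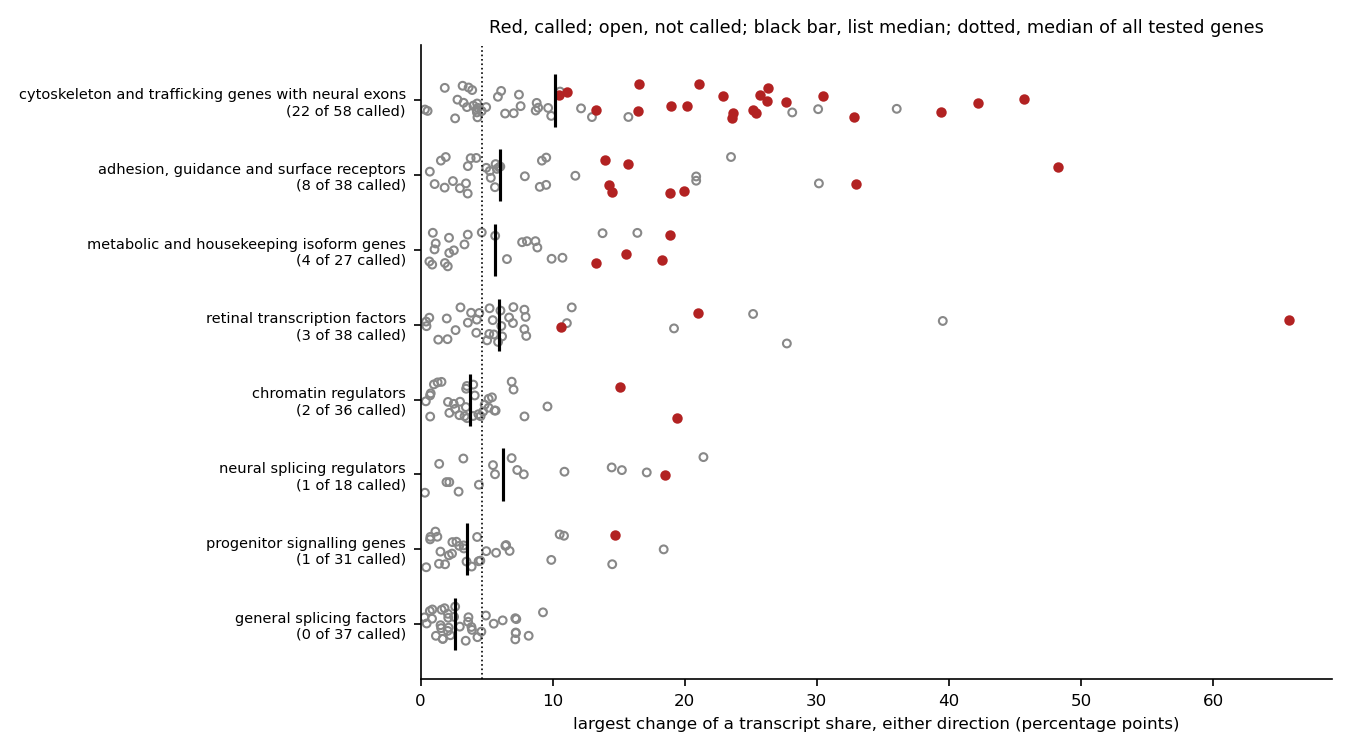
Largest change of a transcript share (percentage points, either direction) of each tested gene in 8 gene lists, with red for called genes, open circles for others, bars for list medians and a dotted line for the median of all 7589 tested genes (4.68 points). The list of cytoskeleton and trafficking genes holds 22 called genes of 58, and the general splicing factors hold 0 of 37.

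Splicing regulators were themselves among the genes tested. Of 18 neural splicing regulators 1 was called (5.56%, against 4.23% of all genes), and 4 passed the adjusted p alone (22.2%, against 11.08% of all genes). The called gene was Elavl1, which encodes the widely expressed RNA-binding protein HuR. Elavl1-001 averaged 34.2% ± 5.82 at E14 and E16 and 15.7% ± 5.52 at E11 and E12 (SD, n = 4 each), with an adjusted p of 0.000143 for the gene (edgeR quasi-likelihood test). It is 5743 nt long where Elavl1-003 is 2317 nt, and both code for the same 326 residues. Ptbp1 passed the adjusted p (0.00347), but its most changed transcript, Ptbp1-001, was at 5.01% ± 3.03 at E14 and E16 and 12.3% ± 3.32 at E11 and E12, a difference of under 10 points. Ptbp2, the neural relative of Ptbp1, had an adjusted p of 0.592, and its 34 nt exon, whose skipping leads to decay of the transcript, was at 92.1% ± 0.426 at E14 and E16 and 93.1% ± 0.349 at E11 and E12 (SD, n = 4 each). Of 37 general splicing factors, 0 were called at the main thresholds of the edgeR quasi-likelihood test, and 4 passed its adjusted p alone (Hnrnph3, Clk2, Srsf2 and Hnrnpa1), while 8 (21.62%) had an unadjusted p under 0.05, against 25.81% of all tested genes. Without E12 replicate 2 or without the lens-rich libraries, 1 general splicing factor was called, and 2 neural splicing regulators were called without E11 replicate 2, E12 replicate 1 or E12 replicate 2.

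Retinal transcription factors had 3 called members of 38 (7.895%, against 4.23% of all genes), Thrb, Runx1t1 and Foxp4. Runx1t1 encodes a corepressor that neurons express as they differentiate. Runx1t1-201, which holds an internal exon that Runx1t1-001 lacks, was at 29.1%, 24.02%, 22.1% and 17.95% at E14 and E16, and at 0%, 0%, 9.05% and 0% at E11 and E12. The sides did not overlap, and the gene itself rose to 57.8 CPM at E14 and E16, against 6.26 CPM at E11 and E12. Its adjusted p was 0.00552, and the change was not called without E11 replicate 1 (adjusted p = 0.0216), E11 replicate 2 (0.0320), E14 replicate 1 (0.0281) or E14 replicate 2 (0.0204, edgeR quasi-likelihood test). It was also not called with limma, with 2 sides in place of 4 stages, without the E11 libraries, without bias adjustment, with the released form of the test or without the lens-rich libraries.

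Of 31 progenitor signalling genes 1 was called (3.23%, against 4.23% of all genes). This was Fgfr3, a receptor of fibroblast growth factors, where Fgfr3-008 held 0%, 15.9%, 22.4% and 20.7% at E14 and E16 and was at 0 in the 4 libraries of E11 and E12 (up to 1.72% allowed in the library with 174 counts). The gene averaged only 6.81 CPM at E14 and E16 and 7.89 CPM at E11 and E12, and its adjusted p was 0.0253 (edgeR quasi-likelihood test). It was not called without E11 replicate 1 (adjusted p = 0.0766), E11 replicate 2 (0.153), E12 replicate 1 (0.0692), E12 replicate 2 (0.0304), E14 replicate 2 (0.0786), E16 replicate 1 (0.183) or E16 replicate 2 (0.142, edgeR quasi-likelihood test). Nor was it called without a filter, with DESeq2, limma, 2 sides, shares per transcript length or coding transcripts alone, or without the libraries of E11, of E12 or rich in lens RNA, although 2 other genes of the list were called in the fit without the lens-rich libraries.

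Among chromatin regulators 2 of 36 were called (5.56%, against 4.23% of all genes). Phf21a encodes BHC80, a reader of unmethylated histone H3 in the complex with the demethylase Kdm1a. Phf21a-202 held 12.6%, 14.23%, 21.22% and 29.7% at E14 and E16 and was at 0 in all 4 libraries of E11 and E12, which allows up to 0.118%. A 23 nt exon of Phf21a was included at 42.3% ± 10.9 at E14 and E16 and 15.5% ± 1.80 at E11 and E12 (SD, n = 4 each), and the gene's adjusted p was 7.68e-06 (edgeR quasi-likelihood test). With shares per transcript length the change of Phf21a was 5.91 points against 19.4 points with shares of counts, and it was not called. Smarcc2, a subunit of the SWI/SNF remodelling complex, had Smarcc2-202 at 19.2% ± 3.87 at E14 and E16 and 4.11% ± 2.63 at E11 and E12, with an adjusted p of 0.000102 (edgeR quasi-likelihood test), and was not called with limma (0.0540). Kdm1a itself, whose neural form holds a 12 nt exon, had an adjusted p of 0.654, and that exon was at 8.86%, 10.7%, 11.13% and 11.6% at E14 and E16, and at 8.06%, 4.73%, 11.3% and 11.4% at E11 and E12. The sides overlapped.

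Of 27 metabolic and housekeeping genes with known isoforms 4 were called (14.8%, against 4.23% of all genes), namely Pkm, Gnao1, Atp2a2 and Ogdh. Without the lens-rich libraries 2 of the list were called. Pkm encodes pyruvate kinase of muscle, which is spliced to M1 or M2 by a choice between 2 exons of 167 nt. Pkm-202 holds the M1 exon (chr9:59675029-59675195) and Pkm-201 the M2 exon (chr9:59675568-59675734). The share of Pkm-202 was 24.5%, 23.5%, 34.9% and 30.9% at E14 and E16, and 6.23%, 4.90%, 17.6% and 9.68% at E11 and E12. The sides did not overlap, the log2 change was 1.72 (SE 0.18) and the gene's adjusted p 6.90e-05 (edgeR quasi-likelihood test). Pkm-201, the M2 form of growing cells, remained the leading transcript at 71.5% ± 5.42 at E14 and E16 and 90.4% ± 5.68 at E11 and E12 (SD, n = 4 each). The share of Pkm-202 was 26.4% at P0 and 35.5% at P28, and the gene's total differed little, with 1862 CPM at E14 and E16 and 1906 CPM at E11 and E12. Gnao1, a G protein subunit of neurons, had Gnao1-003 at 22.2% ± 9.63 at E14 and E16 and 40.5% ± 3.86 at E11 and E12, with an adjusted p of 0.000135 (edgeR quasi-likelihood test). The deposited annotation lists Gnao1-003 as a transcript without a coding sequence. GENCODE M21 gives the same identifier, with a different end, a coding sequence of 354 residues. Which of these holds for the counted transcript was not tested. Gnao1 was not called with 2 sides in place of 4 stages, without the E12 libraries, without bias adjustment or without the lens-rich libraries.

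Several genes known for isoforms in neural development did not pass. Numb, an inhibitor of Notch signalling, had an adjusted p of 0.764, and its 33 nt exon was at 19.7% at E14 and E16 and 28.08% at E11 and E12. Ncam1, a neural adhesion molecule, had an adjusted p of 0.122, and its 30 nt exon was at 19.0% at E14 and E16 and 11.05% at E11 and E12. Fgfr2 had an adjusted p of 0.974 and Dnmt3b of 0.0824 (edgeR quasi-likelihood test for all of these). Pax6, the transcription factor that specifies the eye, had an adjusted p of 0.121, and its 42 nt exon 5a, which alters DNA binding, was at 10.7%, 9.94%, 11.9% and 10.08% at E14 and E16, and at 14.4%, 9.63%, 14.8% and 13.03% at E11 and E12. Without the E11 libraries, however, Pax6 passed the test with a transcript 11.4 points lower at E14 and E16. Mapt and Mitf were not tested, since only 1 transcript of each passed the limits.

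The step between the sides was also set beside the steps within them, where the RNA input did not differ. E14 against E12, the step across the change of input, gave 446 called genes (5.88%) and 27 switches (0.356%), with 1066 (14.05%) past the adjusted p alone. E12 against E11 gave 427 called genes (5.63%) and 22 switches (0.290%), with 1166 (15.36%) past the adjusted p alone. E16 against E14 gave 84 called genes (1.11%) and 2 switches (0.0264%), with 177 (2.33%) past the adjusted p alone (edgeR quasi-likelihood test for all 3). These comparisons share libraries, so their counts are not independent. With 2 libraries an age the counts leaned on single libraries. E14 against E12 gave 238 genes without E14 replicate 1, 185 without E14 replicate 2, 229 without E12 replicate 1 and 699 without E12 replicate 2. E12 against E11 gave 237 genes without E12 replicate 1, 762 without E12 replicate 2 and 227 without E11 replicate 2. E16 against E14 gave 28 genes without E16 replicate 1, 39 without E16 replicate 2 and 32 without E14 replicate 2. In these fits the age with 1 library is assumed to vary like the others. The libraries of E11, of E12 and of E14 also differed in lens RNA within an age, as given above, and its part in these counts was not tested. Among the named genes, Thrb passed at the step E14 against E12 (adjusted p = 0.000846), with an adjusted p of 0.320 for E12 against E11 and 0.972 for E16 against E14 (edgeR quasi-likelihood test). Clta passed at E14 against E12 (0.00117) and at E12 against E11 (0.00664), with 0.139 for E16 against E14 (edgeR quasi-likelihood test). Pter had an adjusted p of 0.000294 for E16 against E14, 0.0894 for E14 against E12 and 0.679 for E12 against E11 (edgeR quasi-likelihood test).

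P0, made from 1 µg like E14 and E16, gave a later point for 320 of the 321 called genes. For the transcript with the largest change, the P0 mean lay past the E14 and E16 mean, away from E11 and E12, in 168 genes. It lay between the sides but nearer E14 and E16 in 101 genes, between them but nearer E11 and E12 in 35, and beyond the E11 and E12 mean in 16. Thrb, Akap7 and Arfgap1 had P0 means between the sides, and Ntrk2, Napb, Epb41l3, Bin1, Clta and Elmo2 had P0 means past E14 and E16. These are positions of means of 2 libraries and carry no test.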

How the data were processed

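The deposited values are estimated counts of Ensembl transcripts, and the submitters' processing notes name kallisto 0.42.4 together with edgeR 3.13.9 and the build GRCm38.p5, without saying what each was used for. No source used here names the annotation release, and the estimated counts come without an error of their own, so the division of reads among similar transcripts is not part of the spreads given. Per the labels' protocols the libraries were directional.

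Counts were rounded and analysed with edgeR 4.0.16 in R 4.3.3. Genes needed 20 counts in each of 8 libraries, and transcripts had to pass filterByExpr (minimum count 10) and hold a mean share of 5% on 1 side. A quasi-likelihood model with bias adjustment, TMM scaling and 1 coefficient per stage (4 residual degrees of freedom) was followed by the F test of diffSpliceDGE on the mean of E14 and E16 minus the mean of E11 and E12. The F statistics were computed with both nested fits at the dispersion of the full fit. The function as released estimates the dispersion anew in each fit, so that some of its F values fell below 0. Bias adjustment and this change were chosen after the data were seen, with the help of simulated data, and the other versions are among the alternatives. A log2 change is that of a transcript relative to its gene. CPM are from counts summed per gene. On 1 draw of simulated counts for 7589 genes, with transcripts drawn independently, changes of 10, 20 and 40 points were called in 16.4%, 35.8% and 80.3% of 67, 67 and 66 genes. The change was made smaller where the leading transcript held too little to lose that much. Of the 99 calls, 11 (11.1%) fell on genes simulated without a change. Of the 122 genes past the adjusted p alone, 21 (17.2%) were such genes. In this 1 draw small changes were often missed and the adjusted p was too small, and both may hold for the data as well.

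Exon structures are from GENCODE M21 on GRCm38, used for the 93.7% of tested transcripts (22269 of 23769) whose coordinates and length were equal in both. Protein lengths of Thrb, Ntrk2, Bin1 and Gnao1-003 are those of the M21 transcript of the same identifier, whose ends differ. Exon inclusion used internal coding exons of up to 300 nt, at least 20 counts per library and an inclusion between 5% and 95% on a side. Libraries of one age were no duplicates (chi-square per degree of freedom at least 11.25), and replicate numbers did not pair libraries across ages (correlations of -0.00431 to 0.0457).

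Named genes are the 14 largest switches and 6 largest other changes with at least 10 CPM on each side, the 2 largest called members of each list, and 12 genes followed whatever their test. A gene that this rule names is not reported here. Members and lists were chosen with earlier results of these data known. Genes of the exon paragraphs outside this rule were chosen after their values were seen. Alternatives covered scaling, filters, tests (DESeq2 1.42.0, limma 3.58.1), designs, thresholds and samples. The authors' CPM table and their table of differential expression were not used.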

Additional observations from a re-analysis of the deposited data

Results flagged for a closer look

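In 144 groups of 4 libraries looked at (shares of named transcripts, inclusion of the exons shown, and marker sums), 11 had a highest or lowest library that stood apart from the other 3 by more of the group's range than Dixon's 95% limit for 4 samples. For independent groups of like samples chance alone gives about 1 in 20. These groups each pool 2 ages and are not independent, so the 11 cannot be set against that rate. The 2 transcripts of Epb41l3, for instance, make up the whole gene and enter as 2 groups. The one library of E14 and E16 that was rich in lens RNA, E14 replicate 2, was among them. Its lens marker sum was 2581 CPM against 4.63 to 72.2 CPM in the others of E14 and E16. In that library the share of Epb41l3-001 was 65.4% against 70.5% to 71.5%, the share of Epb41l3-201 was 34.6% against 28.5% to 29.5%, the share of Fgfr3-203 was 8.94% against 0% in the other 3, and the inclusion of the 15 nt exon of Sh3glb2 was 41.9% against 66.8% to 68.5%. E16 replicate 2 was high for Arfgap1-005 (43.1% against 27.6% to 28.8%). Among the libraries of E11 and E12, E12 replicate 1 was high for Synj1-201 (23.4% against 0% to 0.147%), Arfgap1-005 (2.92% against 0% to 0.468%) and Runx1t1-201 (9.05% against 0% in the other 3). E11 replicate 2 was high for Ablim1-013 (92.8% against 86.0% to 86.9%) and low for Pter-001 (25.8% against 34.4% to 36.2%). The part of lens RNA in these values was not tested.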

How the results depend on the processing

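The 321 genes called for usage were within 1.5 times of that count with RLE scaling, library size alone, no filter, 100 counts per gene, all 24 libraries, the Simes test, DESeq2, shares per transcript length, coding transcripts alone and the released form of diffSpliceDGE (291). They moved to 487 and 142 genes with share thresholds of 5 and 20 points, and to 155 with limma on log2 ratios, 175 with 2 sides in place of 4 stages, 561 without the E11 libraries and 197 without bias adjustment. Genes past the adjusted p alone moved from 841 to 1429 with all 24 libraries, 464 with DESeq2, 257 with limma, 393 with 2 sides, 1522 without the E11 libraries and 518 with coding transcripts alone. Switches moved from 33 to 60 with all 24 libraries, 10 with 2 sides, 52 without the E11 libraries and 13 without bias adjustment. For E12 against E11 the count moved from 427 to 187 at 20 points, 713 with all libraries and 173 without bias adjustment. For E14 against E12 it moved from 446 to 205, 702 and 203 under the same 3 settings, and for E16 against E14 from 84 to 32, 152 and 35, and to 142 without a filter. A threshold on the share changes a count by its construction, and the cause of the other moves was not tested.

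Leaving out 1 library at a time gave 210 to 368 called genes, 511 to 1141 past the adjusted p, 18 to 35 switches, 227 to 762 genes for E12 against E11, 185 to 699 for E14 against E12, 28 to 116 for E16 against E14, and 2777 to 3557 genes (3227 with all) changed in summed count. Non-overlap grows by construction when libraries are left out. Exons of 27 nt or shorter were then higher in 77 to 94 cases and lower in 8 to 12, those of 28 to 54 nt in 59 to 70 and 20 to 29, and those of 55 to 300 nt in 179 to 241 and 151 to 209. Without the lens-rich libraries the counts were 110 higher and 24 lower, 107 and 50, and 484 and 424 from the shortest class to the longest, and with 500 counts per exon 80 of the longest were lower. Replicate numbers did not pair libraries across ages, and a fit with the replicate number as a block called 291 genes and changed no count by over 1.5 times.

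For the named genes and their alternatives, 786 values kept direction and side of the threshold, 80 lost the call, 1 gained it (Pax6, without the E11 libraries) and 1 changed sign (Numb-001, not called, at -0.507 points without the E12 libraries against 5.72 points with all). Depth limits the genes under 10 CPM, such as Fgfr3.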

Other observations

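The 42 nt exon 5a of Pax6, followed over all stages as a description, was at 12.0% at E11, 13.9% at E12, 10.3% at E14 and 11.0% at E16. It was at 49.3% at P0 (54.7% and 44.0% in the 2 libraries), 40.2% at P2, 52.1% at P14 and 41.6% at P28. The change thus lay between E16 and P0, outside the ages compared above, and it was not tested. The 18 nt exon of Src, a tyrosine kinase whose neuronal form holds it, was at 20.9%, 17.1%, 32.3% and 28.14% at E14 and E16, and at 8.13%, 15.8%, 12.5% and 3.48% at E11 and E12, and reached 73.0% at P28. Src was called for usage with an adjusted p of 0.0452 (edgeR quasi-likelihood test), close to the threshold. Both exons were picked after their values were seen.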
